A study of Arabidopsis thaliana with 18 samples.

Results

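When a wild-type Arabidopsis flower opened, 458 of the 22746 probe sets measured on Affymetrix ATH1 arrays (2.01%) rose at least 2-fold from the largest closed bud (stage 12) to the first open flower (stage 13) with no overlap between the arrays of the stages. Of these, 181 probe sets (39.5%) had no comparable rise in either of the double mutants whose flowers stay closed (*arf6-2 arf8-3* plants and *myb21-5 myb24-5* plants), and these 181 opening-induced genes that failed in both mutants are described here. They were chosen on the deposited log2 values by a wild-type difference between stages of at least 1 in group means, with every stage 13 array above every stage 12 array, and by a difference under 0.4 in each mutant. A further 67 opening-induced probe sets failed only in *arf6-2 arf8-3*, 44 failed only in *myb21-5 myb24-5*, and 166 kept their rise in both mutants.

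The 18 arrays came from 6 groups of 3 biological replicates (A, B and C): Wild type plants, *myb21-5 myb24-5* plants and *arf6-2 arf8-3* plants, all of the Columbia ecotype and otherwise untreated, each sampled at stages 12 and 13. Plants grew under 16 h days and whole buds or flowers were collected in the morning. Mutant flowers counted as stage 13 did not open and were matched to open wild-type flowers by age and place in the inflorescence. The *myb21-5* allele is a stop codon mutation and *myb24-5* a T-DNA insertion, so that transcript from both genes can still be measured in that line, and a whole flower mixes petals, stamens, carpels, sepals and nectaries, in which fewer cells of a type and less RNA per cell cannot be told apart. 1 array, labelled *myb21-5 myb24-5* stage 13 replicate A, was left out by the choice of members, so that this group holds 2 arrays (B and C) throughout, whereas the other groups hold 3.

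*ARF6* and *ARF8* are auxin response factors, transcription factors that bind auxin response elements and activate genes when auxin removes the Aux/IAA repressors bound to them. In flowers they are needed for jasmonate production, and jasmonate, by removing JAZ repressors, allows expression of genes such as *MYB21* and *MYB24*, R2R3-type MYB factors of petals, stamens and nectaries. At opening, petals and filaments elongate through loosening of the cell wall, anthers release pollen, and nectaries and petals secrete nectar and volatiles.

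As a check of the labels, wild-type arrays had log2 values of 9.14 or more for *ARF6* and 9.90 or more for *ARF8*, and all 6 *arf6-2 arf8-3* arrays had less (*ARF6* 4.73 to 5.27, *ARF8* 5.73 to 6.41). The brighter of both *MYB21* probe sets had 12.31 to 12.47 on wild-type arrays, 4.40 to 6.19 on *arf6-2 arf8-3* arrays and 10.62 to 11.95 on the 5 *myb21-5 myb24-5* arrays used, and the other had 8.78 to 10.10, 4.33 to 4.90 and 7.96 to 8.90. *MYB24* had 8.37 to 10.24 on wild-type arrays, 3.67 to 4.25 and 8.10 to 9.85. The left-out array had 4.75 for *ARF6*, 5.68 for *ARF8*, 5.05 for *MYB21* (brighter probe set) and 3.88 for *MYB24*, which goes against its label. The medians of all probe sets lay between 7.71 and 7.78 on the 18 arrays. Cell type markers were looked up by gene name, and 8190 probe sets had none, so a marker not found may still be on the array. *CRC*, a carpel and nectary gene and the 1 flower marker of 7 found, lay between 9.48 and 10.07 on wild-type arrays, between 7.23 and 8.57 on *arf6-2 arf8-3* and between 9.74 and 10.89 on the *myb21-5 myb24-5* arrays used. Its name came only through the study's own lists, which hold genes picked on these arrays for a difference in mutant buds. The summed level of 6 measured pollen markers of 8 lay between 11.24 and 11.70 in wild-type buds, above all *arf6-2 arf8-3* buds (9.77 to 10.64, 3 of the 6 called lower) and overlapping *myb21-5 myb24-5* buds (10.38 to 11.35). At stage 13 it lay between 10.10 and 10.82 in wild type and 9.92 and 10.58 in *arf6-2 arf8-3*, and the *myb21-5 myb24-5* arrays used lay above both (10.95 to 11.35). That of 2 measured senescence markers of 6 (*SEN1* and *ORE1*) lay between 8.04 and 9.42 on wild-type arrays, between 10.13 and 12.16 on *arf6-2 arf8-3* arrays and between 8.62 and 10.60 on the *myb21-5 myb24-5* arrays used. The summed level of the 2 tapetum markers found of 5 lay between 5.29 and 5.81 on wild-type arrays. It lay between 5.79 and 9.64 in *arf6-2 arf8-3* buds and between 5.61 and 7.63 in *myb21-5 myb24-5* buds. At stage 13 it lay between 5.44 and 6.32 in *arf6-2 arf8-3* and between 5.53 and 5.68 on the *myb21-5 myb24-5* arrays used. *IRT1*, the 1 root marker found, lay between 6.70 and 10.11 on wild-type and between 4.09 and 7.30 on mutant arrays, and no seed marker was found by name. The part of these shifts in the results below was not tested.

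Across the members, wild-type flowers moved from a typical level below that of the array to one above it, and both mutants stayed low at both stages. The median member had 6.82, 6.75 and 6.83 on the wild-type stage 12 arrays A, B and C, and 8.28, 8.45 and 8.55 on the stage 13 arrays. In *arf6-2 arf8-3* it had 6.21, 6.33 and 6.34 at stage 12 and 6.17, 6.32 and 6.32 at stage 13. In *myb21-5 myb24-5* it had 6.23, 6.13 and 6.27 at stage 12 and 6.08 and 6.32 on replicates B and C at stage 13. The medians of mutant and wild-type arrays thus did not overlap at either stage. The left-out array, with 6.11, lay within the mutant range, and all 181 members were lower on it than on every wild-type stage 13 array. Over all probe sets, its differences from *arf6-2 arf8-3* stage 13 array A had an SD of only 0.12. Pairs of arrays within a group, without the left-out array, had 0.24 to 0.48. That *arf6-2 arf8-3* array was used to choose the members, so the left-out array gives no separate support for them.

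**Figure D1:**
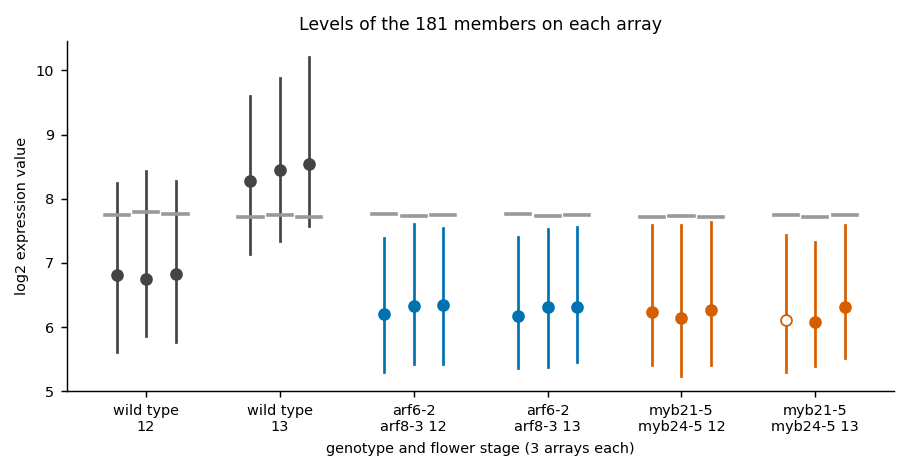
Log2 expression values of the 181 members on each of the 18 arrays (y axis) by genotype and flower stage (x axis). Points are the median over members, vertical lines run from the lower to the upper quartile of members, grey bars are the median of all 22746 probe sets on that array, and the open point is the left-out array. The wild-type stage 13 medians (8.28 to 8.55) lie above the grey bars, and those of all other arrays lie below them.

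The size of these changes follows from the choice of members and is given as a description only. The wild-type rise ran from 1.0 to 4.00 on the log2 scale with a median of 1.41, and 38 members rose at least 4-fold. From stage 12 to 13 the members changed by -1.41 to 0.39 (median 0.03) in *arf6-2 arf8-3* and by -2.12 to 0.40 (median 0.09) in *myb21-5 myb24-5*. The change lay within 0.2 of zero for 113 members in the former and 109 in the latter, and fell by more than 0.4 for 14 members in each. The largest falls in both mutants together were those of *At2g47550* (-1.24 in *arf6-2 arf8-3* and -2.12 in *myb21-5 myb24-5*). It had 7.22, 6.42 and 6.87 in wild-type buds and 8.63, 8.12 and 8.35 in open flowers. The *arf6-2 arf8-3* flowers had 7.31, 6.67 and 5.79 at stage 12 and 5.44, 5.50 and 5.11 at stage 13, and the *myb21-5 myb24-5* flowers 7.86, 7.60 and 6.33, then 5.32 and 4.96. The gene thus began near its wild-type level in both mutants and moved the other way.

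At stage 13, every wild-type array lay above every *arf6-2 arf8-3* array for 166 members and above both *myb21-5 myb24-5* arrays for 175. These counts, too, are fixed in part by the choice of members, and the share of all probe sets was not counted. They rest on 3 and on 2 mutant arrays, so they cannot be set against each other. The median difference from wild type at that stage, fixed in part by the choice of members, was -1.88 in *arf6-2 arf8-3* and -1.81 in *myb21-5 myb24-5*. Group means under 4.46, the 10th percentile of all values, were found for 10 members in wild-type buds, 12 in *arf6-2 arf8-3* and 12 in *myb21-5 myb24-5* at stage 13, and for 0 in open wild-type flowers. A difference between groups that both lie so low would be hard to see on this array.

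The members closest to the limits were *At1g25230*, *UF3GT* and 266884_at, each with a wild-type rise of 1.0, and just outside lay 249583_at, *At3g50340* and 263948_at with 0.997, 0.994 and 0.992. At the limit in *arf6-2 arf8-3*, *At1g02070* and 262832_s_at changed by 0.39 and *At1g33600* by 0.38, while 264005_at, 250990_at and *At5g52760* lay outside with 0.42, 0.42 and 0.43. At the limit in *myb21-5 myb24-5*, 266070_at, *At3g18280* and 250646_at changed by 0.399, 0.383 and 0.378, and 262378_at, 254492_at and *At3g10930* lay outside with 0.401, 0.405 and 0.407. Membership near these values is therefore a matter of small differences. When any 1 array was left out, the number of members ranged from 166 to 235.

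The members could be absent from the mutants already in the closed bud, or present there and not induced. The level at stage 12 was tested with limma over all 22746 probe sets, and calls required both a 2-fold difference or more and an adjusted p under 0.05. In *arf6-2 arf8-3* buds 35 members (19.3%) were lower than in wild-type buds, against 3.03% of all probe sets, 4 (2.21%) were higher, against 1.54%, and 142 were not called. In *myb21-5 myb24-5* buds 33 members (18.2%) were lower, against 1.05% of all probe sets, and 0 were higher, against 0.382%. At an unadjusted p under 0.05 and any fold, limma put 5 members higher (2.76%, against 6.06% of all probe sets) and 72 lower (39.8%, against 8.10%) in *myb21-5 myb24-5* buds. By the methods' t-test with Benjamini-Hochberg adjustment, lower calls were 12 in *arf6-2 arf8-3* (0.572% of all probe sets) and 3 in *myb21-5 myb24-5* buds (0.0572%), and 0 members were higher in either. The median member differed from wild type by -0.26 in *arf6-2 arf8-3* and by -0.29 in *myb21-5 myb24-5* buds, where the medians over all probe sets were 0.01 and 0.00. The choice of members uses the stage 12 arrays too. Scatter there that lowers wild type or raises a mutant favours a gene, which runs against calls of lower and with calls of higher. A gene that is low in a mutant at both stages is flat there and meets the mutant limit, which runs with calls of lower. The net effect of the choice on these counts was not tested. Both comparisons share the wild-type arrays.

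Of the members called lower, 7 in each mutant were lower by at least 8-fold, a count not made over all probe sets. In *arf6-2 arf8-3* 89 members and in *myb21-5 myb24-5* 109 lay within 0.5 of wild type on the log2 scale (49.2% and 60.2%, against 85.4% and 91.4% of all probe sets). Names bear on these counts. The 29 members named only through the study's own lists, which hold genes picked on these arrays for a difference in mutant buds, gave 20 of the 35 lower calls in *arf6-2 arf8-3* and 17 of the 33 in *myb21-5 myb24-5*. The 71 members named by the platform gave 14 and 15, and the 74 unnamed members gave 0 and 0. Among the other opening-induced probe sets, 23 of the 67 that failed only in *arf6-2 arf8-3* were lower in *arf6-2 arf8-3* buds (34.3%), as were 1 of the 44 that failed only in *myb21-5 myb24-5* (2.27%) and 11 of the 166 kept in both (6.63%). In *myb21-5 myb24-5* buds 17 of the 67 were lower (25.4%), although these rise in that mutant, against 2 of the 44 (4.55%) and 12 of the 166 (7.23%). These shares are given without a test.

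**Figure D2:**
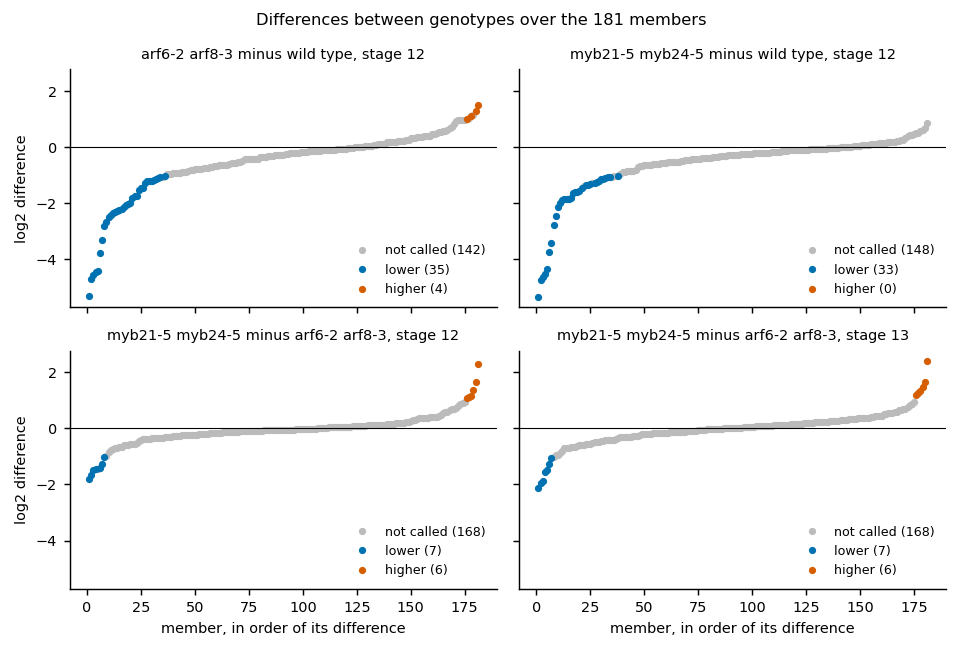
Log2 differences between genotypes (y axis) for the 181 members, each panel in order of its own differences (x axis). Coloured points are members called by limma (2-fold or more, adjusted p under 0.05): in the upper panels 35 lower and 4 higher in *arf6-2 arf8-3* buds and 33 lower in *myb21-5 myb24-5* buds, and in the lower panels 7 lower and 6 higher between the mutants at each stage.

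Cytochrome P450 monooxygenases, enzymes of terpenoid and other specialised metabolism, held the largest rise of all members. *CYP71B31* had log2 values of 8.57, 9.08 and 7.80 in wild-type buds and 12.80, 12.38 and 12.29 in open flowers. It lay between 3.95 and 4.14 on all 6 *arf6-2 arf8-3* arrays and between 3.99 and 4.28 on the 5 *myb21-5 myb24-5* arrays used. Its mean thus rose 16.1-fold in wild type, and wild-type buds already stood well above both mutants. It was 21.1-fold lower in *arf6-2 arf8-3* buds (log2 difference -4.40, SE 0.23, limma adjusted p = 1.03e-08) and 20.4-fold lower in *myb21-5 myb24-5* buds (-4.35, SE 0.23, adjusted p = 2.78e-08). *CYP76C3*, which acts on linalool in Arabidopsis flowers, had 10.94, 10.62 and 10.44 in wild-type buds and 12.73, 12.96 and 12.87 in open flowers. Every mutant array lay between 6.06 and 6.28. The difference in buds was -4.46 in *arf6-2 arf8-3* (SE 0.11, adjusted p = 3.59e-12) and -4.51 in *myb21-5 myb24-5* (SE 0.11, adjusted p = 9.33e-12).

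The other 3 P450 members had the same shape with smaller differences. *CYP71B38* rose by 2.25 in wild type and was lower by 2.13 and 1.98 in buds of *arf6-2 arf8-3* and of *myb21-5 myb24-5* (adjusted p = 5.08e-06 and 3.66e-05). *CYP76C1*, also a linalool oxidase and a neighbour of *CYP76C3* on the chromosome, varied among wild-type buds (9.56, 7.62 and 8.87), and no mutant array was above 7.02. It was lower by 2.25 and 1.86 (adjusted p = 0.000494 and 0.0064). *CYP71B27* had 6.57, 7.91 and 7.70 in wild-type buds and at most 5.79 on a mutant array, and was lower by 1.97 and 1.88 (adjusted p = 0.00511 and 0.0201). Its call in *myb21-5 myb24-5* was lost without wild-type bud array B (-1.63, adjusted p = 0.108) or C (-1.73, 0.0718) and without any 1 of the mutant bud arrays A (-1.86, 0.061), B (-1.94, 0.0601) or C (-1.85, 0.0608). In all, 46 P450 probe sets were measured by name, 6 of which were opening-induced. Of the 46, 15 were lower and 8 higher in *arf6-2 arf8-3* buds, and the *myb21-5 myb24-5* buds had 9 lower and 4 higher, with medians of 0.01 and 0.02. The gene lists here and below hold only probe sets with a name, some named only through the study's lists. Counts over a list thus lean towards differences in mutant buds. Of all probe sets, 3.03% were lower and 1.54% higher in *arf6-2 arf8-3* buds, and 1.05% and 0.382% in *myb21-5 myb24-5* buds.

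*SWEET9*, a sugar transporter that nectaries need to secrete nectar, had 11.17, 11.14 and 10.12 in wild-type buds and 12.59, 13.06 and 12.63 in open flowers. The 11 mutant arrays lay between 5.86 and 6.47. Its level in buds was 26.0-fold lower in *arf6-2 arf8-3* (-4.70, SE 0.24, adjusted p = 7.81e-09) and 26.4-fold lower in *myb21-5 myb24-5* (-4.72, SE 0.24, adjusted p = 1.78e-08). It was the only opening-induced probe set among 6 nectary genes listed, of which 5 were lower in *arf6-2 arf8-3* and 4 in *myb21-5 myb24-5* buds, and 1 of 2 opening-induced among 18 sugar transporter probe sets, of which 4 were lower in each mutant and 3 were higher in *arf6-2 arf8-3*.

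*AAE11*, an enzyme of the family that activates carboxylic acids as acyl-CoA esters, had the largest difference of any member at stage 12. Wild-type buds had 10.54, 11.34 and 10.79 and open flowers 12.24, 12.77 and 13.17. The mutant arrays lay between 5.38 and 5.91. The groups did not overlap, and buds differed by -5.30 in *arf6-2 arf8-3* (39.5-fold, SE 0.23, adjusted p = 1.14e-09) and -5.32 in *myb21-5 myb24-5* (40.1-fold, SE 0.23, adjusted p = 2.39e-09). *At4g12530*, annotated as a lipid transfer protein of the protease inhibitor and seed storage family, had 9.77, 10.46 and 9.39 in wild-type buds, 10.82, 11.99 and 11.60 in open flowers and 5.06 to 5.58 on mutant arrays. It was lower in buds by 4.57 and 4.62 (SE 0.27 for both, adjusted p = 3.41e-08 and 9.02e-08).

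Further members called lower in buds of both mutants carried varied annotations. *At3g55870*, annotated as an alpha subunit of anthranilate synthase, which starts tryptophan synthesis, was lower in buds by 3.76 in *arf6-2 arf8-3* and 3.72 in *myb21-5 myb24-5* (adjusted p = 4.13e-07 and 1.37e-06). *PP2-B15*, related to SKP1-interacting proteins, was lower by 3.32 and 3.40 (adjusted p = 1.95e-09 and 3.37e-09). The O-methyltransferase family genes *At5g37170* and *At5g53810* were lower by 2.31 and 1.74 in *arf6-2 arf8-3* buds (adjusted p = 8.77e-07 and 7.06e-05) and by 2.13 and 1.64 in *myb21-5 myb24-5* buds (adjusted p = 7.04e-06 and 0.000412). *HIPP22*, with a heavy-metal-associated domain, had 7.10, 8.87 and 7.93 in wild-type buds against at most 5.74 on any mutant array, and was lower by 2.48 and 2.79 (adjusted p = 6.95e-05 and 7.99e-05). *HKT1*, a sodium transporter, had 9.65, 9.53 and 9.66 in wild-type buds and 10.82, 10.87 and 10.44 in open flowers, and was lower in buds by 2.34 and 1.85 (adjusted p = 5.91e-07 and 2.02e-05). Its *myb21-5 myb24-5* buds, with 7.30, 7.87 and 8.10, lay above the 7.27, 7.26 and 7.28 of *arf6-2 arf8-3*, a difference that was not called (0.49, adjusted p = 0.12).

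**Figure D3:**
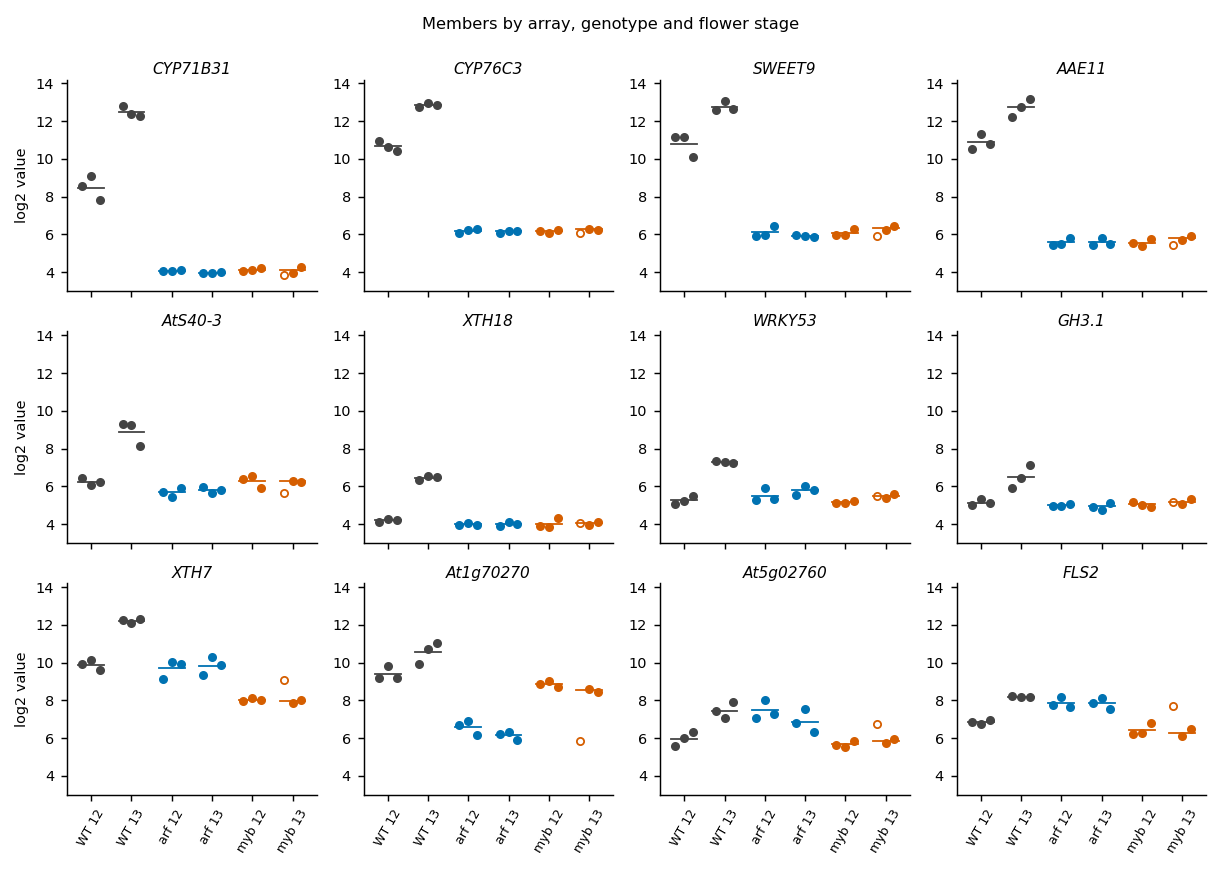
Log2 values (y axis) of 12 members on each array by genotype and stage (x axis: WT, wild type, arf, *arf6-2 arf8-3*, myb, *myb21-5 myb24-5*). Points are arrays, bars are means of the arrays used and open points are the left-out array. The upper row shows members at one low level in both mutants (*SWEET9*, 5.86 to 6.47), the middle row members not called in buds of either mutant (*XTH18*, 3.86 to 4.30 on the mutant arrays used) and the lower row members that differed between the mutants or were higher in *arf6-2 arf8-3* buds.

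All 5 opening-induced genes among 13 Aux/IAA probe sets were members. Aux/IAA proteins repress ARF activity and their genes are themselves targets of auxin response. *IAA6* had 7.34, 8.34 and 8.44 in wild-type buds and 9.50, 10.65 and 11.34 in open flowers, and lay between 6.33 and 6.72 on all mutant arrays. It was lower in buds by 1.53 in *arf6-2 arf8-3* (SE 0.35, adjusted p = 0.00898) and by 1.59 in *myb21-5 myb24-5* (SE 0.35, adjusted p = 0.0205). The latter call was lost without wild-type bud array B (-1.43, adjusted p = 0.103) or C (-1.39, 0.0792) and without mutant bud array A (-1.52, 0.0688), B (-1.62, 0.0651) or C (-1.62, 0.0527). *IAA19* had 10.32, 10.26 and 10.27 in wild-type buds and 10.53, 11.31 and 12.08 in open flowers. It went down between the stages in both mutants, from 8.36, 8.77 and 8.30 to 7.85, 7.84 and 7.54 in *arf6-2 arf8-3* and from 9.28, 8.96 and 8.90 to 8.22 and 8.35 in *myb21-5 myb24-5*. Both sets of mutant buds lay below wild type, by 1.81 (adjusted p = 0.000374) and 1.24 (adjusted p = 0.0192).

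*IAA1*, *IAA3* and *IAA17* were called lower in *arf6-2 arf8-3* buds and not in *myb21-5 myb24-5* buds. *IAA1* had 8.24, 7.92 and 8.30 in wild-type buds, 8.44, 8.06 and 8.16 in *myb21-5 myb24-5* buds and 6.78, 7.42 and 7.16 in *arf6-2 arf8-3* buds. At stage 13 it had 8.86, 9.25 and 9.87 in wild type, 8.25 and 8.34 in *myb21-5 myb24-5* and 6.85, 6.53 and 6.59 in *arf6-2 arf8-3*. The genotypes thus formed 3 separate levels in stage 13 flowers, and 2 in buds. Between the mutants it was higher in *myb21-5 myb24-5* by 1.10 at stage 12 (SE 0.22, adjusted p = 0.00533) and by 1.64 at stage 13 (SE 0.24, adjusted p = 0.000385). *IAA17* was lower in *arf6-2 arf8-3* buds by 1.13 (adjusted p = 0.00222) and differed by -0.20 in *myb21-5 myb24-5* buds (adjusted p = 0.805), and the difference between the mutants was 0.93 (1.90-fold, adjusted p = 0.013), under the fold threshold. *IAA3*, its neighbour on chromosome 1, was lower in *arf6-2 arf8-3* by 1.19 (adjusted p = 0.0205) and differed by -0.09 in *myb21-5 myb24-5* (adjusted p = 0.967), with 1.11 between the mutants (adjusted p = 0.0439).

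These calls lay close to the thresholds. *IAA1* fell under 2-fold in *arf6-2 arf8-3* buds without wild-type array A (-0.99) or C (-0.96) or mutant array A (-0.86), and between the mutants without array A of *arf6-2 arf8-3* (0.93) or of *myb21-5 myb24-5* (0.99). *IAA17* fell under it without *arf6-2 arf8-3* array A (-0.95). For *IAA3* the call against wild type was lost without wild-type array B (adjusted p = 0.0654) or C (0.0883) or *arf6-2 arf8-3* array A (0.0998), and the call between the mutants without *arf6-2 arf8-3* array A (0.179) or B (0.0646) or *myb21-5 myb24-5* array B (0.12) or C (0.146). Over all 13 Aux/IAA probe sets 6 were lower in *arf6-2 arf8-3* buds and 2 in *myb21-5 myb24-5* buds, and 4 were higher in *myb21-5 myb24-5* than in *arf6-2 arf8-3* buds.

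SAUR genes, small auxin-up RNAs whose products promote cell expansion, gave 6 members among 20 probe sets, of which 7 were opening-induced. *SAUR63*, *SAUR64*, *SAUR65*, *SAUR66* and *At1g29490* lie in one cluster on chromosome 1. Related sequences of such a cluster can share probes, so their values may not be independent. *At1g29490* had 6.23, 7.11 and 6.33 in wild-type buds and 8.30, 9.28 and 9.30 in open flowers, and lay between 3.80 and 4.16 on all mutant arrays, under that 10th percentile. It was lower by 2.68 in *arf6-2 arf8-3* (adjusted p = 2.99e-06) and 2.46 in *myb21-5 myb24-5* buds (adjusted p = 2.47e-05). *SAUR65* differed from it in *myb21-5 myb24-5*. It had 5.91, 6.16 and 6.45 in wild-type buds, 5.40, 6.24 and 5.69 in *myb21-5 myb24-5* buds and 4.04, 4.18 and 4.14 in *arf6-2 arf8-3* buds. At stage 13 it had 6.86, 7.76 and 7.64 in wild type, 5.80 and 5.73 in *myb21-5 myb24-5* and 4.24, 4.42 and 4.59 in *arf6-2 arf8-3*. It was lower in *arf6-2 arf8-3* buds by 2.05 (SE 0.23, adjusted p = 2.79e-05), differed by -0.40 in *myb21-5 myb24-5* buds (adjusted p = 0.502), and was higher in *myb21-5 myb24-5* than in *arf6-2 arf8-3* by 1.65 at stage 12 (adjusted p = 0.000325) and 1.35 at stage 13 (adjusted p = 0.00273).

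*SAUR66* lay between, with 8.91, 9.36 and 9.48 in wild-type buds, 7.61, 8.38 and 8.54 in *myb21-5 myb24-5* buds and 6.65, 6.99 and 6.82 in *arf6-2 arf8-3* buds. The 3 genotypes did not overlap at stage 12. It was lower than in wild type by 2.43 (adjusted p = 1.47e-05) and 1.07 (adjusted p = 0.0298), and higher in *myb21-5 myb24-5* than in *arf6-2 arf8-3* by 1.36 in buds (adjusted p = 0.00343) and 1.26 at stage 13 (adjusted p = 0.00882). The call in *myb21-5 myb24-5* buds was lost without wild-type array B (adjusted p = 0.12) or C (0.0993) or mutant array A (0.113) or B (0.0566), and the call at stage 13 without *myb21-5 myb24-5* array B (0.0851). *SAUR63* and *SAUR64* were lower in *arf6-2 arf8-3* buds by 1.22 and 2.01 (adjusted p = 0.00611 and 0.000268). In *myb21-5 myb24-5* buds *SAUR64* was lower by 1.46 (adjusted p = 0.00978, and 0.0557 without wild-type array B) and *SAUR63* differed by -0.85 (adjusted p = 0.107). *SAUR10*, outside the cluster, rose from 4.29, 4.09 and 4.24 to 5.42, 5.23 and 6.16 in wild type and lay between 3.96 and 4.26 on all mutant arrays, under the 10th percentile of all values. Of the 20 SAUR probe sets, 12 were lower and 2 higher in *arf6-2 arf8-3* buds and 8 lower in *myb21-5 myb24-5* buds, with medians of -1.35 and -0.60. Among them *SAUR9*, *SAUR23*, *SAUR25*, *SAUR35*, *SAUR59*, *SAUR68* and *SAUR70* were named only through the study's lists of genes changed in mutant buds. These counts and medians are therefore fixed in part by the naming.

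**Figure D4:**
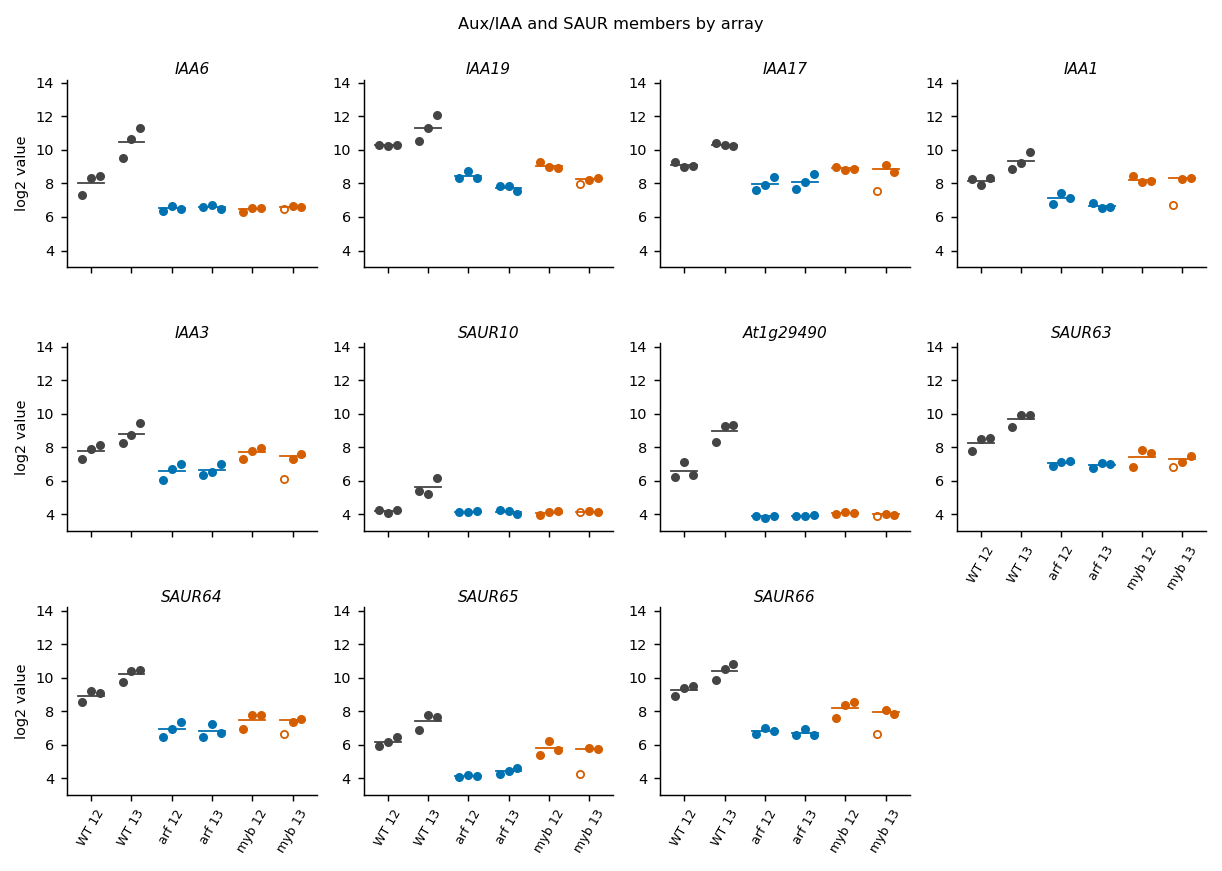
Log2 values (y axis) of the 5 Aux/IAA and 6 SAUR members on each array by genotype and stage (x axis, abbreviated as WT, arf and myb). Points are arrays, bars are means of the arrays used and open points are the left-out array. *IAA6* and *At1g29490* lie at one low level in both mutants, while *IAA1* and *SAUR65* lie higher in *myb21-5 myb24-5* than in *arf6-2 arf8-3* (by 1.10 and 1.65 in buds).

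*GH3.1*, of an auxin-inducible family that includes enzymes conjugating auxin to amino acids, was 1 of 2 opening-induced among 5 GH3 probe sets. It rose from 4.99, 5.32 and 5.12 to 5.93, 6.46 and 7.11 in wild type and lay between 4.76 and 5.31 on all mutant arrays. In buds it differed from wild type by -0.13 in *arf6-2 arf8-3* (adjusted p = 0.833) and -0.09 in *myb21-5 myb24-5* (adjusted p = 0.943).

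Cell wall members were led by xyloglucan endotransglucosylase/hydrolases (XTH), which cut and rejoin the xyloglucan chains that tether cellulose, and included 4 of the 7 opening-induced among 15 XTH probe sets. *XTH7* was high in wild-type buds (9.91, 10.12 and 9.60) and in open flowers (12.25, 12.13 and 12.32). The *arf6-2 arf8-3* flowers kept the bud level at both stages, with 9.15, 10.02 and 9.94, then 9.35, 10.28 and 9.89. The *myb21-5 myb24-5* flowers lay lower at both, with 7.97, 8.15 and 8.00, then 7.87 and 8.04. Its level in buds was 3.56-fold lower in *myb21-5 myb24-5* than in wild type (-1.83, SE 0.23, adjusted p = 0.000284) and differed by -0.17 in *arf6-2 arf8-3* (adjusted p = 0.776). Between the mutants it was lower in *myb21-5 myb24-5* by 1.66 at stage 12 (adjusted p = 0.000337) and 1.89 at stage 13 (adjusted p = 0.000204). *XTH18* lay under the 10th percentile of all values in wild-type buds (4.13, 4.27 and 4.20) and on all mutant arrays (3.86 to 4.30), and had 6.34, 6.52 and 6.50 in open wild-type flowers. It differed from wild-type buds by -0.20 in *arf6-2 arf8-3* (adjusted p = 0.33) and -0.18 in *myb21-5 myb24-5* (adjusted p = 0.556).

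*XTH4* had 12.64, 12.74 and 12.20 in wild-type buds and 13.73, 13.78 and 13.62 in open flowers, and no mutant array was above 11.79. It was lower in *myb21-5 myb24-5* buds by 1.13 (adjusted p = 0.000717) and in *arf6-2 arf8-3* buds by 0.90, or 1.87-fold (adjusted p = 0.00143), under the fold threshold. *XTH30* was lower by 1.20 and 1.22 in buds of *arf6-2 arf8-3* and of *myb21-5 myb24-5* (adjusted p = 0.00111 and 0.00289). *EXLA1*, an expansin-like gene and 1 of 2 opening-induced among 23 expansin probe sets, rose from 8.24, 8.53 and 7.53 to 10.78, 11.11 and 11.00 in wild type. In *myb21-5 myb24-5* buds array A (8.58) stood apart from B and C (6.78 and 6.97). At stage 13 the *arf6-2 arf8-3* flowers had 8.91, 8.87 and 8.53 and the *myb21-5 myb24-5* flowers 6.59 and 7.06, a difference of -1.95 (SE 0.43, adjusted p = 0.00701). That call was lost without *myb21-5 myb24-5* array B (-1.71, adjusted p = 0.0827). *AGP14*, an arabinogalactan peptide of the cell surface, was lower by 1.29 and 1.55 in buds of *arf6-2 arf8-3* and of *myb21-5 myb24-5* (adjusted p = 0.00383 and 0.0029).

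Lipid and cuticle genes gave *KCS1*, a condensing enzyme that elongates fatty acids to very long chains, and *WSD1*, which makes wax esters. *KCS1* had 10.66, 10.23 and 10.35 in wild-type buds and 11.41, 11.64 and 11.98 in open flowers. It was lower in *arf6-2 arf8-3* buds (9.25, 9.08 and 9.36) by 1.19 (adjusted p = 0.000342), whereas *myb21-5 myb24-5* buds (10.12, 10.04 and 10.14) differed by -0.32 (adjusted p = 0.477). The mutants differed by 0.87, or 1.83-fold (adjusted p = 0.00587), under the fold threshold. *WSD1* differed by -0.51 (adjusted p = 0.0523) and -0.10 (adjusted p = 0.903) from wild-type buds. Both opening-induced probe sets of 8 in this list were members. *At5g45950*, a GDSL-motif lipase or hydrolase gene, was lower by 2.27 and 1.83 in buds of *arf6-2 arf8-3* and of *myb21-5 myb24-5* (adjusted p = 6.06e-05 and 0.00134) and went down further between the stages, by -0.53 and -0.61.

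Of the glycosyltransferases, *UGT72E3*, which glucosylates monolignols, was lower by 1.08 in *myb21-5 myb24-5* buds (adjusted p = 0.000205) and by 0.97 in *arf6-2 arf8-3* buds (1.96-fold, adjusted p = 0.000167). *UF3GT*, annotated as an anthocyanin and flavonoid glycosyltransferase, differed from wild type by 0.24 and 0.19 (adjusted p = 0.476 and 0.749). These were 2 of 3 opening-induced among 53 probe sets of the family.

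Among the transcription factor families listed, both opening-induced WRKY genes of 9 were members, *WRKY53*, which promotes leaf senescence, and *WRKY6*, linked to senescence and defence. *WRKY53* had 5.04, 5.25 and 5.49 in wild-type buds and 7.33, 7.30 and 7.21 in open flowers, and lay between 5.11 and 6.04 on the mutant arrays used. It differed from wild-type buds by 0.25 and -0.11 (adjusted p = 0.434 and 0.888). *WRKY6* was lower by 0.76 and 0.72 in buds of *arf6-2 arf8-3* and of *myb21-5 myb24-5* (1.70-fold and 1.64-fold, adjusted p = 0.000638 and 0.00307), both under the fold threshold. *HB-1*, a class I homeodomain-leucine zipper factor, had 10.27, 10.44 and 10.92 in wild-type buds and 11.42, 11.82 and 12.16 in open flowers. Levels in *arf6-2 arf8-3* buds overlapped wild type (10.12, 10.44 and 10.83, difference -0.08, adjusted p = 0.911), and those in *myb21-5 myb24-5* buds were lower (8.98, 9.23 and 9.38, difference -1.35, adjusted p = 0.00289). No opening-induced MYB, NAC or peroxidase gene was a member, of 1, 2 and 2 in these lists, nor was the 1 pectin methylesterase or any of the 3 terpene synthase probe sets. Of these 3, *At3g25810* changed by -0.25 in *arf6-2 arf8-3* and by 0.41 in *myb21-5 myb24-5*, just over the limit. Its buds were 28.3-fold and 28.0-fold lower than wild type. *TPS21* rose by 1.03 in *myb21-5 myb24-5*, while its buds were 55.6-fold lower in *arf6-2 arf8-3* and 27.4-fold lower in *myb21-5 myb24-5*. No jasmonate synthesis, JAZ, bHLH or aquaporin probe set listed (7, 9, 8 and 3) was opening-induced by the measure used.

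Several of the largest wild-type rises belonged to genes not called in either mutant at stage 12. *AtS40-3*, of the S40 family linked to leaf senescence, had 6.45, 6.07 and 6.24 in wild-type buds and 9.29, 9.23 and 8.14 in open flowers. The *arf6-2 arf8-3* arrays lay between 5.45 and 5.98 and those of *myb21-5 myb24-5* between 5.90 and 6.56. The bud differences were -0.57 (adjusted p = 0.186) and 0.03 (adjusted p = 0.987). *At2g43620* rose by 2.49 in wild type and differed in buds by -0.06 and -0.08 (adjusted p = 0.913 and 0.938), and *At2g43590*, which lies near it, rose by 1.93 and differed by -0.22 and 0.16 (adjusted p = 0.7 and 0.895). *Hop3*, a co-chaperone that links HSP70 and HSP90, rose by 1.94 from 4.76, 4.78 and 4.64, and no mutant array used was above 4.60. *At1g78780*, of a pathogenesis-related protein family, rose by 2.16 and was, as an exception, lower by 1.47 and 1.60 in buds of *arf6-2 arf8-3* and of *myb21-5 myb24-5* (adjusted p = 0.000353 and 0.000537). *PHI-1*, annotated as phosphate-responsive, rose by 2.21 and differed by -0.61 and -1.28 in buds (adjusted p = 0.425 and 0.109). *At3g54940* rose by 2.12 and differed by -0.41 and -0.43 (adjusted p = 0.0378 and 0.0727), under 2-fold, and *At5g67020* rose by 2.03 and differed by -0.10 and 0.18 (adjusted p = 0.867 and 0.83). *At1g07590* and *At1g56060* rose by 2.88 and 2.13 and were likewise not called in buds, with differences of -0.16 and -0.37 for the former and 0.09 and -0.06 for the latter. The unnamed probe set with the largest rise, 246000_at, went from 5.04, 4.78 and 4.89 to 8.27, 8.69 and 8.56 and lay between 4.45 and 4.82 on all mutant arrays used.

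The 4 members higher in *arf6-2 arf8-3* than in wild-type buds were *At5g02760*, *ORS1*, *At2g45040* and *FLS2*. Their share of members (2.21%) was near that of all probe sets (1.54%), and the methods' t-test with Benjamini-Hochberg adjustment called 0. They are therefore described as single genes. *At5g02760*, of the protein phosphatase 2C family, had 5.58, 6.01 and 6.35 in wild-type buds and 7.43, 7.06 and 7.90 in open flowers. Its *arf6-2 arf8-3* buds, with 7.08, 8.02 and 7.31, overlapped open wild-type flowers, and its *myb21-5 myb24-5* buds, with 5.64, 5.54 and 5.86, overlapped wild-type buds. It was higher in *arf6-2 arf8-3* buds by 1.49 (SE 0.31, adjusted p = 0.00432), and lower in *myb21-5 myb24-5* than in *arf6-2 arf8-3* by 1.79 at stage 12 (adjusted p = 0.00179). *FLS2*, the receptor kinase that perceives bacterial flagellin, had 6.88, 6.74 and 6.94 in wild-type buds, 7.77, 8.16 and 7.68 in *arf6-2 arf8-3* buds and 6.24, 6.29 and 6.83 in *myb21-5 myb24-5* buds. It was higher by 1.02 in *arf6-2 arf8-3* buds (adjusted p = 0.00149), and lower in *myb21-5 myb24-5* than in *arf6-2 arf8-3* by 1.42 at stage 12 (adjusted p = 0.000159) and 1.56 at stage 13 (adjusted p = 0.000127).

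*ORS1*, of a family that promotes organ growth, was higher in *arf6-2 arf8-3* buds by 1.28 (adjusted p = 0.022), and *At2g45040*, annotated as a matrix metalloproteinase, by 1.11 (adjusted p = 0.00662). For 3 of these 4 genes the call rested on single arrays. The *ORS1* call was lost without wild-type array A (adjusted p = 0.0589) or B (0.102) or mutant array B (0.0916). *FLS2* fell under 2-fold without wild-type array B (0.96) or mutant array B (0.87), and *At2g45040* without wild-type array B (0.85). The number of members higher in these buds rose to 8 without *arf6-2 arf8-3* array A (1.45% of all probe sets) and to 7 without wild-type array C (1.67%). The 2 senescence markers were called higher in the same buds, and their part in these differences was not tested.

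Between the mutants, 141 members at stage 12 and 134 at stage 13 lay within 0.5 of each other on the log2 scale (77.9% and 74.0%, against 89.3% and 84.4% of all probe sets). At stage 12, 7 members (3.87%) were lower in *myb21-5 myb24-5* than in *arf6-2 arf8-3*, against 1.02% of all probe sets, and 6 (3.31%) were higher, against 1.57%. At stage 13 the counts were 7 lower and 6 higher (3.87% and 3.31%), against 1.64% and 2.80%, the last of which is near the share of members. The same 5 members were lower and 5 were higher at both stages, a count not made over all probe sets. Since the choice of members holds both mutants flat between the stages, that likeness is in part fixed by it. The left-out array bears on stage 13: with all 18 arrays 0 members, and 0 of all 22746 probe sets, were called in either direction, and on that array all 13 called members lay closer to the *arf6-2 arf8-3* than to the *myb21-5 myb24-5* mean. Higher calls at stage 12 numbered 3 without *arf6-2 arf8-3* array A (1.49% of all probe sets).

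*At1g70270* had the largest difference in favour of *myb21-5 myb24-5*. Wild-type buds had 9.21, 9.84 and 9.17, *arf6-2 arf8-3* buds 6.69, 6.90 and 6.15 and *myb21-5 myb24-5* buds 8.90, 9.04 and 8.70. At stage 13 wild type had 9.95, 10.72 and 11.06, *arf6-2 arf8-3* 6.23, 6.32 and 5.92 and *myb21-5 myb24-5* 8.63 and 8.47. The mutants were thus far apart, and *myb21-5 myb24-5* buds stood just under wild type. It was higher in *myb21-5 myb24-5* than in *arf6-2 arf8-3* by 2.30 at stage 12 (SE 0.26, adjusted p = 5.47e-05) and 2.39 at stage 13 (SE 0.29, adjusted p = 7.24e-05), and 7.08-fold lower in *arf6-2 arf8-3* than in wild-type buds (adjusted p = 4.26e-06). *At4g22490*, annotated in the lipid transfer protein family, was higher in *myb21-5 myb24-5* by 1.15 at stage 12 (adjusted p = 0.00921) and 1.48 at stage 13 (adjusted p = 0.0025), the former under 2-fold without *arf6-2 arf8-3* array A (0.98). At stage 13, 252210_at was higher by 1.17 (adjusted p = 0.00144).

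**Figure D5:**
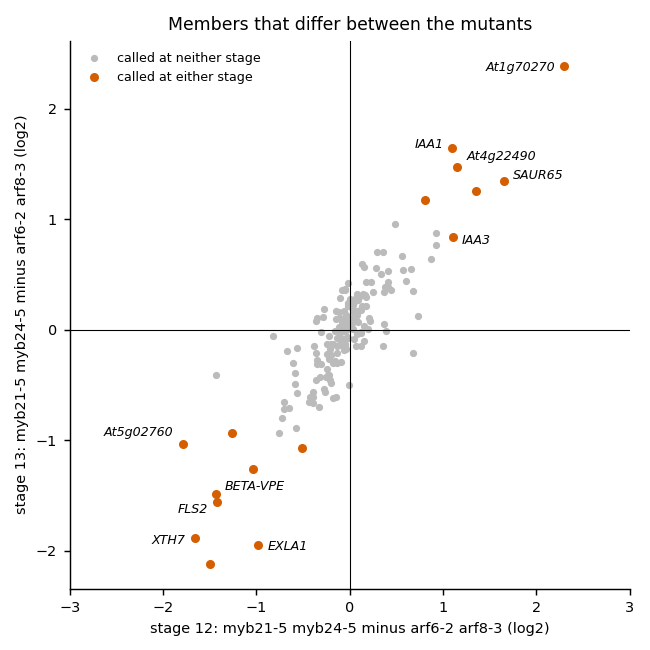
Log2 difference between the mutants (*myb21-5 myb24-5* minus *arf6-2 arf8-3*) for the 181 members at stage 12 (x axis) and stage 13 (y axis, replicates B and C of *myb21-5 myb24-5*). Coloured points are the 16 members called at either stage, from *At1g70270* at the upper right (2.30 and 2.39) to *XTH7* at the lower left (-1.66 and -1.89), and the spread along the diagonal is in part fixed by the choice of members.

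On the other side stood genes that kept a bud-like or higher level in *arf6-2 arf8-3*. *BETA-VPE*, a vacuolar processing enzyme that matures seed storage proteins, had 9.40, 9.41 and 9.54 in wild-type buds, 10.01, 10.04 and 10.75 in *arf6-2 arf8-3* buds and 8.54, 9.04 and 8.91 in *myb21-5 myb24-5* buds, 3 ranges without overlap. It was lower in *myb21-5 myb24-5* than in *arf6-2 arf8-3* by 1.44 at stage 12 (adjusted p = 0.000219) and 1.48 at stage 13 (adjusted p = 0.000292). *HB-1* was lower by 1.27 at stage 12 (adjusted p = 0.00244) and by 0.93 at stage 13, or 1.91-fold (adjusted p = 0.0248), under the fold threshold. The unnamed 260427_at was 2.83-fold lower at stage 12 (adjusted p = 0.0192) and 4.34-fold lower at stage 13 (adjusted p = 0.00299). The stage 12 call was lost without *arf6-2 arf8-3* array B (-1.10, adjusted p = 0.0701) and without *myb21-5 myb24-5* array A (-1.44, 0.0649) or C (-1.44, 0.064). *At1g33600* was lower at stage 13 by 1.07 (adjusted p = 0.00282), under 2-fold without *myb21-5 myb24-5* array B (-0.97) and with the replicate letter as a block (-0.98).

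Members were spread over all 5 chromosomes, with 32, 16, 17, 11 and 24 of the 100 members of a single named gene on chromosomes 1 to 5. No share over all placed genes was counted, for the chromosomes or for the neighbours that follow. By RefSeq gene order, 22 of 105 members that could be placed lay within 5 genes of another member, in 13 pairs. These were *IAA3* with *IAA17*, the SAUR cluster, *At1g33590* with *At1g33600*, *SLAH1* with *WRKY6*, *At1g66090* with *AAE11*, *At2g43590* with *At2g43620*, *CYP76C1* with *CYP76C3*, *At5g04970* with *At5g04980* and *At5g59490* with *At5g59540*. *SLAH1*, a homologue of the guard cell anion channel SLAC1, was lower by 1.09 in *arf6-2 arf8-3* buds (adjusted p = 4.61e-06) and by 0.95 in *myb21-5 myb24-5* buds (1.93-fold, adjusted p = 6e-05), and *WRKY6*, with 1 protein-coding gene between them, differed by -0.76 and -0.72.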

How the data were processed

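Per the study's methods, the authors scanned ATH1 arrays (MAS5 software) and used RMA in Genespring for background correction and normalisation. The deposited values are log2 expression values, 1 per probe set and array, and were used without further scaling. The 64 control probe sets were left out of 22810. An array gives no read depth, and the number of arrays per group limits the precision.

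Members were found by the rule given in the report. Members, gene lists and tests were chosen with earlier results of these data known. Of the 181 members, 71 were named by the platform's annotation, 29 only through the study's lists, 7 match several genes and 74 have no name. Each gene name refers to 1 probe set. Gene lists and markers hold only probe sets with a name, from the platform or the study's lists. Named were the 20 members with a name and the largest wild-type rise, up to 4 per gene list, the 5 with the largest change in each direction per comparison, and the 3 nearest each limit inside and outside it. Other members were added after their values were seen.

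limma 3.58.1 (R 4.3.3) was fitted once with 6 group means to the 17 arrays, after a check on simulated data, and two-sided p-values were adjusted over 22746 probe sets by the Benjamini-Hochberg method. Differences between stages within a genotype and between mutant and wild type at stage 13 were not tested, since they chose the members. To see if arrays of one letter pair up, their deviations from group means were correlated. These were 0.69, 0.23 and 0.31 (A, B and C) for *myb21-5 myb24-5* with wild-type buds and 0.57, 0.43 and 0.68 for the buds of both mutants, 0.64, -0.02 and 0.20 for *arf6-2 arf8-3* with wild-type buds, and 0.07 and 0.08 (B and C) for both mutants at stage 13. The labels do not say what a letter shares, so the letter was a block in an alternative fit only. Other alternatives were all 18 arrays, a fit of only the groups compared, the methods' t-test, other thresholds and limits, array weights, an intensity trend, other normalizations, low values left out, and leaving out each array in turn. A planned search of promoter motifs was not run, and no sequences were used here.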

Additional observations from a re-analysis of the deposited data

How the results depend on the processing

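No result reversed its direction under any alternative run, and of 1280 values of single genes under alternatives 1135 kept their side of the threshold and 145 fell short of it. Lower calls in *arf6-2 arf8-3* buds (35) became 57 without the fold cutoff (6.86% of all probe sets) and 12 by the methods' t-test with Benjamini-Hochberg adjustment (0.572%), and higher calls (4) became 12 (6.23%) and 0 (0.145%). Lower calls in *myb21-5 myb24-5* buds (33) became 3 by that t-test (0.0572%), and higher calls (0) became 2 without the fold cutoff (1.28%). Between the mutants, the calls at stage 12 (7 lower, 6 higher) became 12 and 11 without the fold cutoff (4.24% and 3.90%) and 0 and 0 by that t-test (0.0308% and 0.189%), with 3 higher on all 18 arrays (0.906%). Those at stage 13 (7 and 6) became 16 and 11 (6.74% and 6.24%), then 0 and 0 (0.0879% and 0.387%), and 0 and 0 on all 18 arrays, where 0 of 22746 probe sets were called. Unadjusted, the methods' t-test gave 35 and 5 (2.74% and 1.37% of all probe sets), 34 and 0 (1.57% and 0.426%), 7 and 6 (0.963% and 1.54%), and 7 and 6 (1.56% and 2.78%).

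Leaving out 1 array at a time gave 34 to 37 lower and 3 to 8 higher members in *arf6-2 arf8-3* buds (2.56% to 3.49% and 1.27% to 1.71% of all probe sets). In *myb21-5 myb24-5* buds it gave 25 to 31 and 0 to 1 (0.849% to 1.03% and 0.202% to 0.426%). Between the mutants it gave 5 to 7 and 3 to 7 at stage 12 (0.844% to 1.4% and 1.48% to 1.64%), and 5 to 10 and 6 to 7 at stage 13 (1.21% to 1.65% and 2.28% to 2.73%). The 1 higher member in *myb21-5 myb24-5* buds appeared without wild-type array C. With the replicate block the counts were 36 and 6 (3.18% and 1.79% of all probe sets), 37 and 0 (1.21% and 0.47%), 7 and 6 (1.12% and 1.69%), and 9 and 6 (1.91% and 3.04%). *At1g33600* at stage 13 was the 1 named call the block changed (-0.98). The number of members (181) was 107 with a mutant limit of 0.2 and 80 with a wild-type limit of 1.5, and ran from 166 without wild-type stage 13 array C to 235 without array A of that group. With the left-out array included it was 206, of which 174 were shared. The causes of these changes were not tested. Groups of 3 arrays, and of 2 for *myb21-5 myb24-5* at stage 13, limit which differences can be called, and values near the bottom of the array's range bound the differences of the dimmest members.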
